A study of Mus musculus with 53 samples.

Results

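Caspases, the Bcl2 family and their regulators were examined in the embryonic mouse cortex, as the levels of 40 protein-coding genes among 37991 gene IDs with a deposited value. The members were chosen by gene symbol, not by level: numbered caspases, Bcl2 and the genes named after it, Mcl1, Bax, Bak1, Bok, the BH3-only genes, the Birc genes, Xiap, Apaf1 and Diablo. In the GENCODE M21 mouse annotation 42 symbols met these criteria, and Bcl2a1a and Bcl2a1d had no value to analyse here. The tissue was cortex of untreated C57bl/6 embryos at E16.5, given as 1 authors' mean of 3 libraries in RPKM, reads scaled to gene length in kilobases and to library depth. The series covers 53 libraries in 19 groups, the rest being hippocampus and cultured neurons and astrocytes, some given a lentiviral miR (H3f3a/b) or potassium chloride. The other 50 libraries were not analysed here, so the comparisons below are between genes of 1 tissue. No value has an SD, and no test between conditions was possible.

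Apoptosis removes many progenitors and young neurons while the cortex forms. In the mitochondrial pathway, BH3-only proteins sense damage or loss of growth factors and bind Bcl2-like guardians, which frees Bax and Bak1 to open the outer mitochondrial membrane. Released cytochrome c assembles with Apaf1 into the apoptosome, which activates caspase-9 and through it the executioner caspases. Death receptors feed the same executioners through caspase-8. Inhibitor of apoptosis proteins (IAPs) restrain caspases, and Diablo, released from mitochondria, relieves that restraint. A transcript level is not a measure of death, since most of these proteins are held inactive or controlled after translation.

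Low deposited values carried the size of single reads and so showed how the values had been scaled. With the whole gene span, introns included, 658 of 1038 low values of multi-exon genes (63.4%) lay within 0.5% of what 1 read in 1 of 3 libraries is worth, at library depths of 51.3, 64.8 and 71.6 M reads (M for mega). With exon length 47 of 1750 (2.69%) lay on the 3 fullest peaks found for that length. A gene with long introns therefore has a low RPKM for its reads. Each level is given below as deposited, and where it matters also per kilobase of exon at the same depth scaling, which takes all counted reads to lie in exons. The summed depth of 188 M reads was used to estimate the reads behind each value. Intervals are 95% intervals from exact Poisson or binomial formulas. These were applied to the estimated reads, which need not be whole numbers, so the intervals are approximate. They cover counting error only (reads without molecular identifiers are not independent molecules), not differences between embryos or libraries. The labelled tissue was borne out by its markers: all 6 cortical neuron genes and all 6 progenitor genes were at or above 1 RPKM. Of protein-coding genes 31.6% were. Neurod6 was at 194, Tubb3 at 156 and Fezf2 at 27.0 RPKM, and Fabp7 at 102, Vim at 31.03 and Sox2 at 20.2 RPKM.

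The members spanned a wide range of levels, from Bcl2a1c, listed at 0, to Mcl1 at 28.5 RPKM. Of the 40 members, 15 (37.5%) were at or above 1 RPKM, and among 20214 protein-coding genes 31.6% were, so the share of members was close to that of all genes. The median member stood at 0.538 RPKM and the median protein-coding gene at 0.214 RPKM. Only Mcl1 reached 10 RPKM, a level that 4.5% of protein-coding genes reached. Only Bcl2a1c was listed at 0, as were 15.2% of protein-coding genes. Per kilobase of exon, 26 members (65.0%) were at or above 1, against 54.1% of protein-coding genes, and 6 were at or above 10, against 20.9%. Mcl1, Bax and Bcl2l2 together held 56.8% of the members' summed RPKM, and 30.9% of the sum per kilobase of exon. Placed in order of RPKM, 19 of the 39 neighbouring pairs had counting intervals that overlapped, such as Birc2 (2.77), Bok (2.67) and Diablo (2.58 RPKM), or Bak1 (0.912) and Bcl2l13 (0.911 RPKM). Being an average of bulk tissue, a low value cannot tell fewer expressing cells from less RNA in each.

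**Figure D1:**
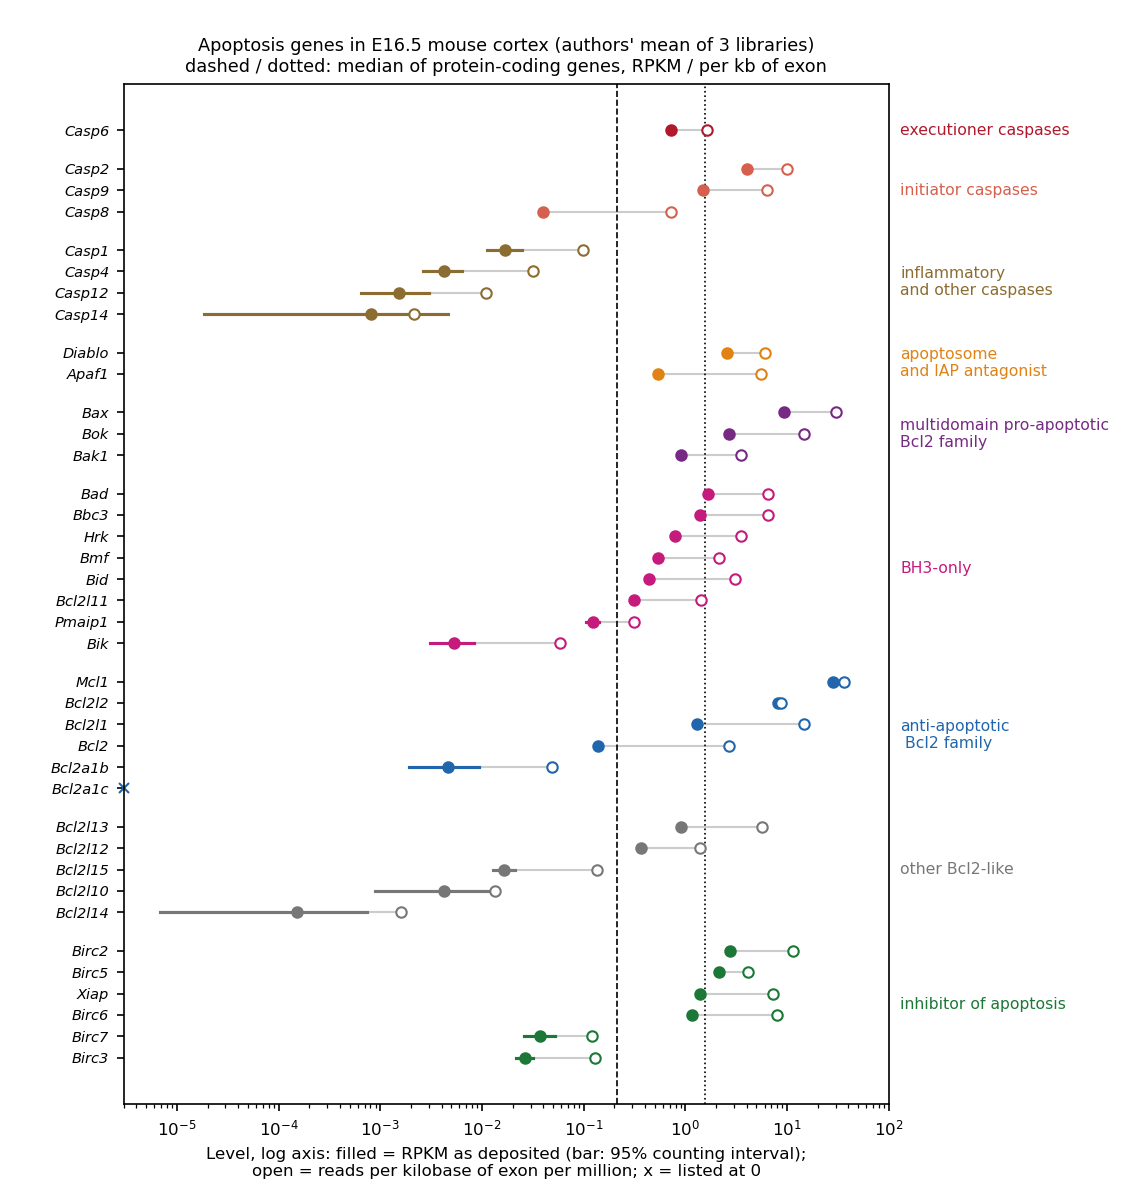
Level of 38 of the 40 members in E16.5 cortex on a log axis, grouped by role. Filled points are deposited RPKM with 95% counting intervals, open points are levels per kilobase of exon at the same depth scaling, and the dashed and dotted lines are the medians of protein-coding genes on these scales (0.214 RPKM and 1.58 per kilobase of exon). Bax and Mcl1 sit at the right on both scales, while Casp1, Casp4, Casp12 and Casp14 sit far to the left. The cross marks Bcl2a1c, listed at 0.

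Among the executioner caspases, which cleave cellular substrates, Casp6, also tied to axon pruning, was at 0.722 RPKM from an estimated 1717 reads. Per kilobase of exon it stood at 1.64, close to the median of protein-coding genes, 1.58. Per kilobase of its longest protein-coding transcript it stood at 6.28, so its level depended on which exons were counted.

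The initiator caspases, which start the cascade, differed by pathway. Casp2, activated on a platform of Pidd1 and Cradd after DNA damage or failed division, was the highest at 4.03 RPKM. Casp9, the apoptosome's caspase, stood at 1.48 RPKM, and Casp8, the caspase of death receptors, at 0.0398 RPKM. Casp9 was 37.1 times Casp8 (33.5 to 41.2). Casp8 has a longer span than Casp9, and per kilobase of exon the ratio was 8.87, with levels of 6.36 and 0.718.

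The caspases of inflammation and of the epidermis were near the limit of detection. Casp1, which matures interleukin-1 beta, was at 0.0170 RPKM from about 28 reads, and Casp4, a sensor of bacterial lipopolysaccharide, at 0.00420 RPKM from about 22 reads. Casp12, linked to inflammation and the endoplasmic reticulum, was at 0.00152 RPKM from about 8 reads. Casp14, which acts in keratinocyte differentiation, was at 0.000817 RPKM, a value that 1 read in the library of 64.8 M reads would give within 0.115%. Its counting interval ran from 1.85e-05 to 0.00466 RPKM. Together these 4 genes held 0.187% of the summed RPKM of the 10 caspases. Of 8 microglial markers, the cells in which Casp1 is best known in brain, 1 was at or above 1 RPKM, with C1qc at 1.03, C1qa at 0.942 and C1qb at 0.581 RPKM, and the list summed to 3.37 RPKM. Of these 8, 6 were at or above 1 per kilobase of exon, with Cx3cr1, a long gene, at 10.2 from an estimated 8660 reads. Other leukocyte markers were lower, with S100a8 at 0.578, S100a9 at 0.262 and Cd79a at 0.0336 RPKM, and Elane and Cd3e listed at 0. Epidermal Krt14 and Krt5 were at 0.00330 and 0.00192 RPKM, while Krt10 was at 1.49 and Krt1 at 0.678 RPKM. The part of such cells in these caspase levels was not tested. Of markers for other cells in the tissue, 3 of 4 red blood cell genes were at or above 1 RPKM, with Hba-a1 at 53.6, Hbb-bs at 52.6 and Hba-a2 at 48.3 RPKM, and 1 of 4 endothelial genes was, with Cldn5 at 17.3, Kdr at 0.570, Cdh5 at 0.280 and Pecam1 at 0.133 RPKM. All 4 genes of either list were at or above 1 per kilobase of exon. These marker counts are read beside 31.6% of protein-coding genes at or above 1 RPKM and 54.1% at or above 1 per kilobase of exon.

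Start regions are shown for the highest pro-apoptotic and anti-apoptotic members, Bax and Mcl1, and for the lowest pair of caspases, because members with high and low levels differed in their CpG content. The sequences are from RefSeq on GRCm38.p6, 250 bases before to 50 bases after the gene start, read 5′ to 3′ on the gene's strand. Capitals mark every CpG and every GC box (GGGCGG or its reverse complement CCGCCC), a motif that itself contains a CpG. The window of Bax lies at chr7:45466849-45467148 on the minus strand, that of Mcl1 at chr3:95658471-95658770 on the plus strand, that of Casp14 at chr10:78718244-78718543 on the minus strand and that of Casp12 at chr9:5345226-5345525 on the plus strand.
Bax: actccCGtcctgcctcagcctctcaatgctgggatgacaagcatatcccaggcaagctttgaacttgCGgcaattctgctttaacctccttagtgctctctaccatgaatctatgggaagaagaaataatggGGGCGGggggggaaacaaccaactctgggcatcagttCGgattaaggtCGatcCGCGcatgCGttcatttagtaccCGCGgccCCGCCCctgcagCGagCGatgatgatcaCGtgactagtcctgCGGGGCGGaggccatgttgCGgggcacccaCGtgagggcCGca
Mcl1: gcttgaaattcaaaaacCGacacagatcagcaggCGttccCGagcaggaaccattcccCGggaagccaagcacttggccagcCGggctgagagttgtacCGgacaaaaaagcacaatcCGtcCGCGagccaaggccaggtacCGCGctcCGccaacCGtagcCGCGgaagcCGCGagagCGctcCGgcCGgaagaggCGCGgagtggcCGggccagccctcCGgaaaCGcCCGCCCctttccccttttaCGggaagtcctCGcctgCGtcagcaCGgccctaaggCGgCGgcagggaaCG
Casp14: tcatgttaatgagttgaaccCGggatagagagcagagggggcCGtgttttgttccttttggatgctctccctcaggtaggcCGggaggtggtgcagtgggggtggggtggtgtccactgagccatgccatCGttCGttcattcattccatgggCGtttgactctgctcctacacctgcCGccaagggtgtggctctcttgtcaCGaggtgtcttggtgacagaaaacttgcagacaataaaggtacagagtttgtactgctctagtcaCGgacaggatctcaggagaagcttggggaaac
Casp12: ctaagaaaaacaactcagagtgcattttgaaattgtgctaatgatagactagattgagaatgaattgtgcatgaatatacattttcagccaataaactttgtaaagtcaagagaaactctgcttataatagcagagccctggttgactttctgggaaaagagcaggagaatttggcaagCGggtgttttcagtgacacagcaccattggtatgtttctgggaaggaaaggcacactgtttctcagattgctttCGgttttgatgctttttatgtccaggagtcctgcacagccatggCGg

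Bax had 19 CpGs and 3 GC boxes in this window and Mcl1 had 33 CpGs and 1 GC box, while Casp14 had 9 CpGs, Casp12 had 3 and neither had a GC box. A start region was given for 35 of the 40 members, and where a gene had several, the one richest in CpG was used. At least 10 CpGs were found in 13 of the 14 members at or above 1 RPKM (92.9%), the exception being Bcl2l2 with 9, and in 93.0% of the 5094 protein-coding genes at that level. None of the 11 members below 0.1 RPKM had 10, where 31.2% of the 6672 protein-coding genes at that level did. Those 11 ranged from 0 CpGs in Bcl2l15 to 9 in Casp14. The members richest in CpG, Apaf1 with 46 and Bcl2 with 44, were at 0.534 and 0.139 RPKM, both on long gene spans. Per kilobase of exon they stood at 5.52 and 2.66, above the median of protein-coding genes, 1.58. A GC box, searched on both strands, was in 13 of 14 members at or above 1 RPKM (92.9%) and in 2 of 11 below 0.1 RPKM (18.2%), against 72.0% and 29.5% of protein-coding genes at those levels. The motif TATAAA, on either strand, was in 2 of the 35 members, Xiap and Bcl2l12, and in 13.5% of the 15585 protein-coding genes with a window. These letters are a description of the windows and do not show that a factor binds there.

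**Figure D2:**
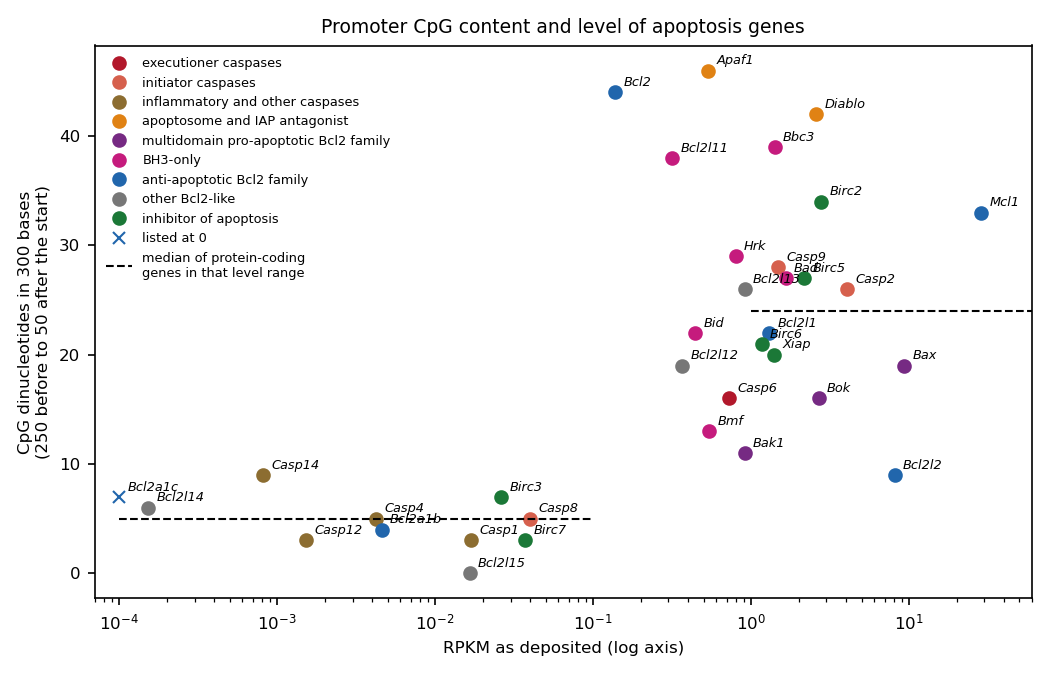
CpG dinucleotides in the 300 bases around the gene start against deposited RPKM (log axis) for the 35 members with a start region, coloured by role. All 11 members below 0.1 RPKM have fewer than 10 CpGs, and dashed lines are the medians of protein-coding genes below 0.1 RPKM (5) and at or above 1 RPKM (24).

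Of the multidomain pro-apoptotic genes, whose products form the mitochondrial pore, Bax was the main transcript. Bax (ENSMUSG00000003873, chromosome 7) stood at 9.27 RPKM, rank 1008 of 20214 protein-coding genes, Bok at 2.67 RPKM and Bak1 at 0.912 RPKM. Bax was 10.2 times Bak1 (9.63 to 10.7), and 8.77 times per kilobase of exon, where the levels were 30.6 for Bax, 14.7 for Bok and 3.49 for Bak1. Bok, a Bax-like gene, was 0.288 times Bax as deposited and 0.480 times per kilobase of exon. All of Bak1 lies opposite Ggnbp1, listed at 0.0834 RPKM, in GENCODE M21. No source used here says whether reads were counted by strand, so reads of this pair cannot be told apart.

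The BH3-only genes, the sensors of the pathway, had a lower median than the multidomain genes, 0.492 RPKM over 8 genes against 2.67 over 3. The median of protein-coding genes was 0.214 RPKM. Of the BH3-only genes 2 (25.0%) were at or above 1 RPKM, close to the 31.6% of protein-coding genes. Bad, which growth factor signalling restrains, was the highest at 1.66 RPKM, and Bbc3, the p53 target PUMA, stood at 1.41 RPKM. In GENCODE M21 Bad shares 620 bases, 6.18% of its span, with Gpr137 on the opposite strand, at 6.78 RPKM. Hrk, a BH3-only gene known chiefly from neurons, was at 0.797 RPKM, Bmf, which responds to detachment and cytoskeletal stress, at 0.543 RPKM, and Bid, which caspase-8 cleaves, at 0.441 RPKM. Bcl2l11, the gene of BIM, was at 0.316 RPKM, 0.224 times Bbc3 (0.212 to 0.238) and 0.221 times per kilobase of exon. Pmaip1, the gene of NOXA, was at 0.123 RPKM from about 162 reads, and Bik at 0.00527 RPKM from about 18 reads. Of the 8, 6 were at or above 1 per kilobase of exon, beside 54.1% of protein-coding genes. These 6 ran from 6.51 for both Bad and Bbc3 to 1.44 for Bcl2l11, while Pmaip1 was at 0.316 and Bik at 0.0588.

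Among the anti-apoptotic Bcl2 genes, which hold the pore formers in check, Mcl1 led and Bcl2 itself was below Bcl2l1 and Bcl2l2. Mcl1 (ENSMUSG00000038612, chromosome 3), a short-lived guardian needed by neural progenitors, stood at 28.5 RPKM, percentile 98.5 and rank 295 of 20214. Bcl2l2, the gene of BCL-W, was at 8.09 RPKM, Bcl2l1 (ENSMUSG00000007659), the gene of BCL-X, at 1.31 RPKM and Bcl2 (ENSMUSG00000057329) at 0.139 RPKM. The order of the lower genes turned on the length used. Per kilobase of exon Mcl1 was at 36.6, Bcl2l1 at 14.5, Bcl2l2 at 8.81 and Bcl2 at 2.66, so that Bcl2l1 passed Bcl2l2 and stood at 0.397 times Mcl1, against 0.0458 times as deposited. Bcl2 remained the lowest of these 4 on both scales, at an estimated 4579 reads in a gene of 176097 bases. It was below the median of protein-coding genes in RPKM (0.214) and above that median per kilobase of exon (1.58). Bcl2l1 was 9.43 times Bcl2 as deposited (9.11 to 9.75) and 5.46 times per kilobase of exon. The value of Bcl2l1 joins its splice forms, which have opposite effects on survival. Mcl1, Bcl2l2 and Bcl2l1 also have gene spans in GENCODE that differ from RefSeq, at 0.704, 0.648 and 0.680 times, so their levels per kilobase of exon carry that doubt. Bcl2l2 shares 98.7% of its span with Gm20521 on the same strand, which was listed at 0.

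The blood-cell guardian A1 was nearly undetected in its copies with a value, Bcl2a1b and Bcl2a1c. The copies Bcl2a1a and Bcl2a1d had no value to analyse here. Bcl2a1b was at 0.00459 RPKM from about 7 reads, and Bcl2a1c was listed at 0, which for so short a gene allows up to 0.0360 RPKM by a limit of 3 reads, or 0.0443 RPKM as the upper end of its exact 95% Poisson interval. The A1 copies are close relatives, so reads may have been lost or split between them. The remaining Bcl2-like genes have less settled roles. Bcl2l13, a mitochondrial outer membrane protein, was at 0.911 RPKM and 5.68 per kilobase of exon, and Bcl2l12 at 0.368 RPKM. Bcl2l15 was at 0.0166 RPKM. Bcl2l10, best known from oocytes and eggs, was at 0.00421 RPKM, beside oocyte markers Gdf9 at 0.319, Bmp15 at 0.00415 and Zp3 at 0.00175 RPKM. Its value is what 1 read in each of the 3 libraries would give within 0.0109%. Bcl2l14 was at 0.000153 RPKM, the worth of 1 read in the library of 51.3 M reads.

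Of the IAP genes, 4 of 6 (66.7%) lay between 1.17 and 2.77 RPKM, beside 31.6% of protein-coding genes at or above 1 RPKM. The rest lay below 0.1 RPKM, as did 44.1% of protein-coding genes. Birc2, a ubiquitin ligase of TNF receptor signalling (cIAP1), was at 2.77 RPKM, Birc5 (survivin) at 2.16, Xiap, the direct inhibitor of caspases, at 1.39 and Birc6, a giant ubiquitin ligase, at 1.17 RPKM. Their order changed per kilobase of exon, with Birc2 at 11.4, Birc6 at 7.94, Xiap at 7.35 and Birc5 at 4.13. Birc3 (cIAP2), the paralog of Birc2, was at 0.0263 RPKM and Birc7 (livin) at 0.0373 RPKM. Birc2 was 105 times Birc3 (88.1 to 127) and 88.7 times per kilobase of exon, and 0 protein-coding genes with a value lie between them on chromosome 9. Xiap was 0.502 times Birc2 as deposited and 0.645 times per kilobase of exon. Birc6 had the most reads of any member, an estimated 38408, on a span of 175062 bases. Birc5 works mainly in cell division, in the chromosomal passenger complex, and its partners stood near it, Aurkb at 2.84, Incenp at 1.35 and Cdca8 at 1.19 RPKM. Per kilobase of exon all of these partners were above Birc5, with Incenp at 8.49, Aurkb at 5.81 and Cdca8 at 4.79. Other mitosis genes were of the same order in RPKM, with 5 of 6 at or above 1 RPKM and 6 of 6 at or above 1 per kilobase of exon. Of protein-coding genes, 31.6% and 54.1% were at these levels. Mki67 was at 6.02, Top2a at 4.63 and Ccnb1 at 3.88 RPKM, down to Bub1 at 0.567 RPKM.

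Downstream of mitochondria, Diablo, the IAP antagonist, was at 2.58 RPKM and Apaf1, the scaffold of the apoptosome, at 0.534 RPKM. Diablo was 1.85 times Xiap as deposited (1.80 to 1.91), and 0.821 times per kilobase of exon, at 6.03 against 7.35, so the order of this pair turned. Per kilobase of the longest transcript Diablo was 1.41 times Xiap and the pair kept its order. In GENCODE the span of Diablo is 1.12 times that in RefSeq. Diablo also lies opposite AC157931.1, at 0.830 RPKM, over 29.5% of its span, so its levels carry these doubts. Apaf1 was 0.361 times Casp9 as deposited and 0.868 times per kilobase of exon. Bax exceeded Bcl2 by 66.9 times (64.5 to 69.3) and Bcl2l1 by 7.10 times (6.91 to 7.29), and by 11.5 and 2.104 times per kilobase of exon. Of 14 pairs compared, 13 kept their order per kilobase of exon, while 10 moved by more than 1.5 times.

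**Figure D3:**
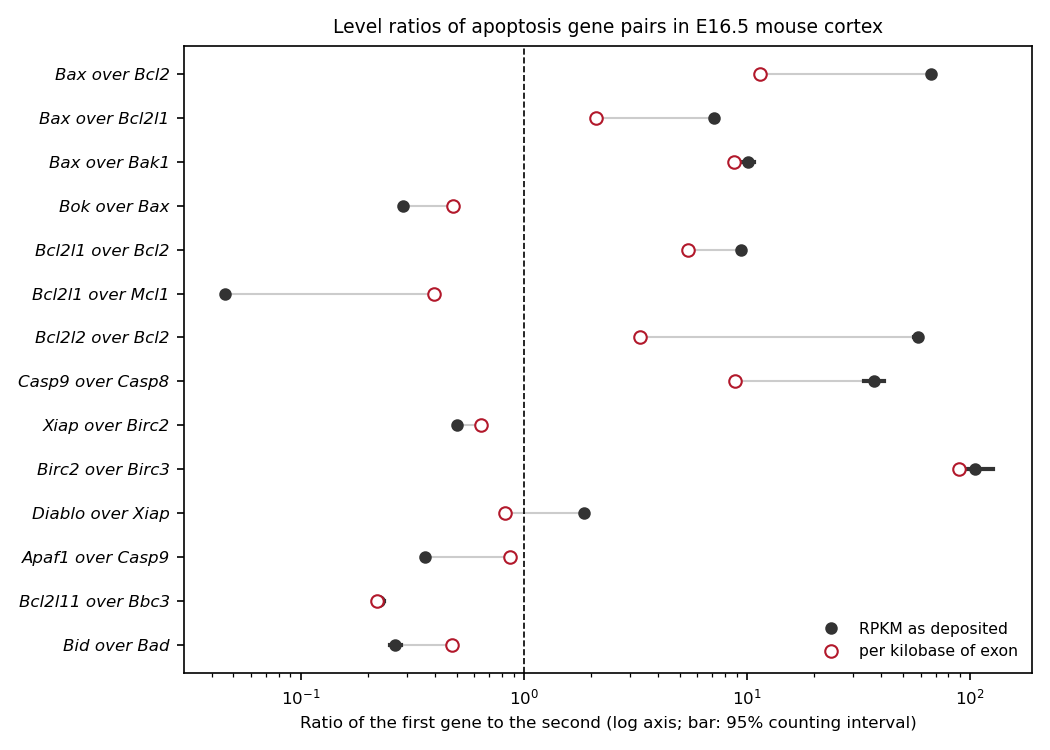
Ratio of the first to the second gene in 14 pairs, on a log axis. Filled points are ratios of deposited RPKM with 95% counting intervals, open points are ratios per kilobase of exon, and the dashed line marks equal levels. Diablo over Xiap is the pair whose points lie on both sides of that line.

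Pro-apoptotic and anti-apoptotic members overlapped widely. The pro-apoptotic list held the apoptotic caspases, Apaf1, Diablo, the pore formers and the BH3-only genes, 19 in all, and the anti-apoptotic list held the guardians and IAPs, 12 in all. At or above 1 RPKM were 8 of 19 pro-apoptotic genes (42.1%) and 7 of 12 anti-apoptotic genes (58.3%), beside 31.6% of protein-coding genes. The pro-apoptotic median was 0.797 RPKM, the anti-apoptotic median 1.24 RPKM and that of protein-coding genes 0.214 RPKM. The difference of medians, pro-apoptotic minus anti-apoptotic, was -0.57 on the log2(RPKM + 0.1) scale, and -0.65 per kilobase of exon. For the Bcl2 family alone it was 0.63 in RPKM and -0.47 per kilobase of exon. With means in place of medians it was 0.14 in RPKM and 0.61 per kilobase of exon. Genes are not replicates, and no direction of the balance was called from these values.

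The sums of the lists gave the opposite order on the 2 scales. The lists hold 19 and 12 genes, so a sum also depends on list size and is not a level per gene. Summed RPKM was 33.8 over pro-apoptotic genes and 45.6 over anti-apoptotic genes, a ratio of 0.741, with Mcl1 alone holding 62.5% of the anti-apoptotic sum. Per kilobase of exon the sums were 145 for pro-apoptotic and 93.7 for anti-apoptotic genes, a ratio of 1.55. Without Mcl1 the pro-apoptotic sum was 1.98 times the anti-apoptotic sum as deposited and 2.54 times per kilobase of exon. The pro-apoptotic list kept Bax, which held 27.4% of its summed RPKM, so these ratios leave out the top gene of 1 list only. The pro-apoptotic genes ranged from Bik at 0.00527 to Bax at 9.27 RPKM, and the anti-apoptotic genes from Bcl2a1c, listed at 0, to Mcl1 at 28.5 RPKM. Per kilobase of exon 16 of 19 pro-apoptotic genes (84.2%) and 8 of 12 anti-apoptotic genes (66.7%) were at or above 1, beside 54.1% of protein-coding genes.

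**Figure D4:**
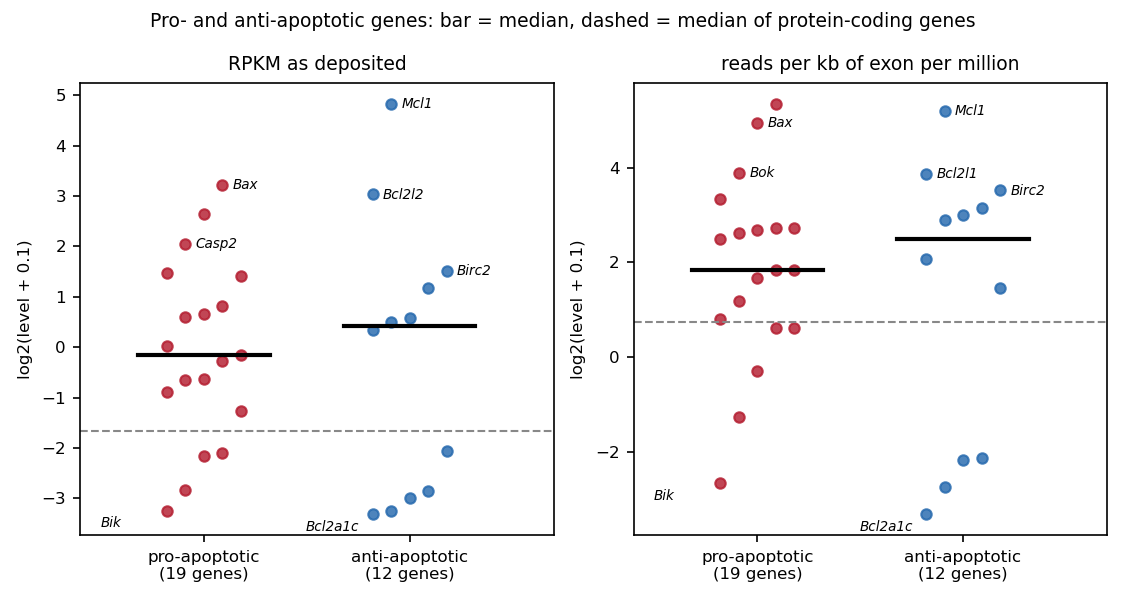
Levels of the 19 pro-apoptotic and 12 anti-apoptotic genes as log2(level + 0.1), in deposited RPKM (left) and per kilobase of exon (right). Each point is a gene, bars are list medians (0.797 and 1.24 RPKM; 3.49 and 5.74 per kilobase of exon) and the dashed line is the median of protein-coding genes. The lists overlap over most of their range on both scales, with Bax at the top of the pro-apoptotic and Mcl1 at the top of the anti-apoptotic genes in RPKM.

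Genes around this core differed by pathway, and their counts are read beside 31.6% of protein-coding genes at or above 1 RPKM and 54.1% at or above 1 per kilobase of exon. Of death receptors and their ligands none of 9 was at or above 1 RPKM and 3 of 9 were per kilobase of exon. In RPKM they had Tnfrsf21 (death receptor DR6) at 0.739, Ngfr (the p75 neurotrophin receptor) at 0.541, Tnfrsf1a at 0.507 and the ligand Tnf at 0.00550 RPKM. Fas was at 0.00705 and Fasl at 0.0224 RPKM, beside Casp8 at 0.0398 RPKM. Tnfrsf21, a long gene, reached 13.1 per kilobase of exon, Ngfr 2.97 and Tnfrsf1a 2.57. Of the adaptors, 3 of 8 were at or above 1 RPKM and 6 of 8 per kilobase of exon, with Pidd1 at 2.25, Casp8ap2 at 1.23, Tradd at 1.22 and Cradd at 0.0258 RPKM. Mitochondrial death proteins and channels were the highest of these lists, 9 of 11 at or above 1 RPKM with a median of 4.80 RPKM, and 10 of 11 at or above 1 per kilobase of exon. Cycs, the cytochrome c gene, was at 12.6, the channel gene Vdac1 at 6.71, Vdac3 at 6.30 and the nuclease gene Endog at 0.395 RPKM. Caspase substrates were at or above 1 RPKM in 4 of 7 genes and per kilobase of exon in 7 of 7, with Acin1 at 6.21, Parp1 at 5.46, Lmnb1 at 5.46 and Gas2 at 0.0702 RPKM.

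In the p53 axis 4 of 9 genes were at or above 1 RPKM, and 8 of 9 were at or above 1 per kilobase of exon, with a median of 10.5. Trp53 was at 5.50 RPKM, its ubiquitin ligase gene Mdm2 at 2.69, Mdm4 at 2.19 and the epithelial relative Trp63 at 0.000540 RPKM, beside the p53 targets Bax at 9.27, Bbc3 at 1.41 and Pmaip1 at 0.123 RPKM. Of neuronal stress signalling genes, 5 of 9 were at or above 1 RPKM and 8 of 9 per kilobase of exon, with Jun at 11.1, Map3k12 (the kinase DLK) at 4.84, Mapk8 (JNK1) at 3.104 and Trib3 at 0.0378 RPKM. Necroptosis and pyroptosis genes were low, with 0 of 12 at or above 1 on either scale and a median of 0.00637 RPKM, well under the 0.214 RPKM of protein-coding genes. Gsdmd, the pore former of pyroptosis, was at 0.370, Pycard at 0.246, the necroptosis kinase gene Ripk3 at 0.0694 and Nlrc4 at 0.000624 RPKM. They lay beside Casp1 at 0.0170 and Casp4 at 0.00420 RPKM.

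**Figure D5:**
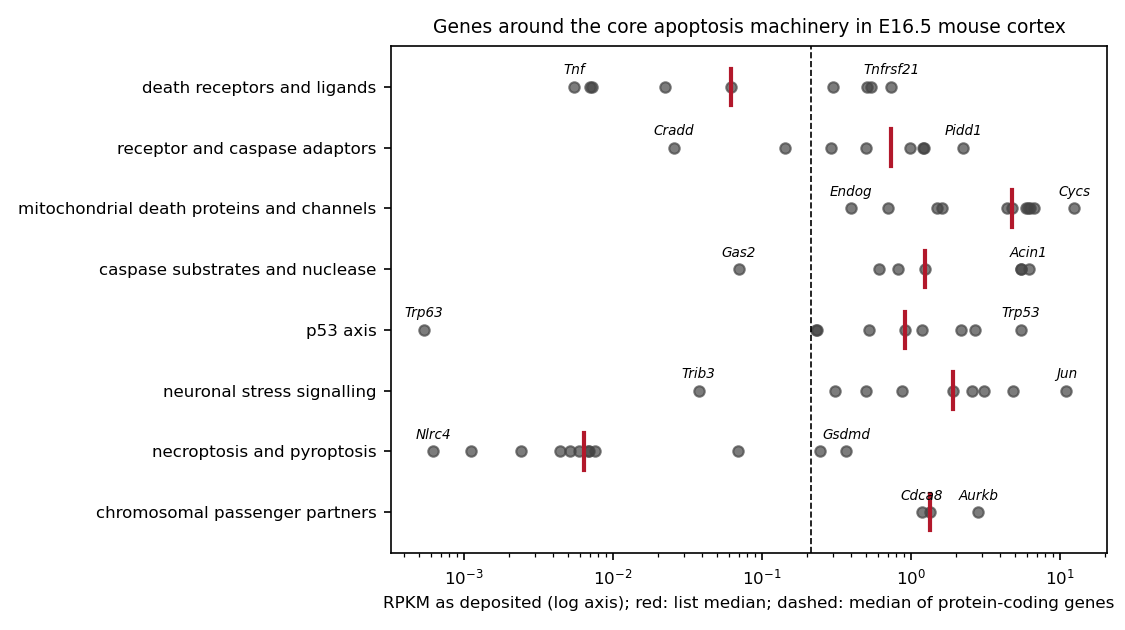
Deposited RPKM (log axis) of genes in 8 lists around the core machinery. Each point is a gene, red bars are list medians and the dashed line is the median of protein-coding genes (0.214 RPKM). The mitochondrial list has its median at 4.80 RPKM, and the necroptosis and pyroptosis list at 0.00637 RPKM.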

How the data were processed

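RNA of the embryonic cortex was purified with Trizol and spin columns and sequenced from Illumina TruSeq libraries, per the labels' protocols. The values are RPKM that the authors deposited as 1 mean column, assigned by the labels to 3 libraries. Nothing states whether these were separate embryos. The submitters' processing notes name HTSeq 0.6.0, DESeq 1.16.0, Cuffdiff 2.0.2, TopHat2 2.0.9 and Bowtie2 2.1.0 with the mm9 (NCBIM37) build, and give no roles.

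Gene IDs were matched to GENCODE M21, made on a later build, for symbols, biotypes and lengths (32919 of 37991 matched), so no gene spans are given as coordinates; those printed are RefSeq start windows. Library depths came from the fullest peaks of low values times span. On simulated reads this step returned the depths that had been set. Those reads were scaled with the same spans, so they could not test whether the deposited values were scaled by span. Levels per kilobase of exon are RPKM times span over the union of exons. The pseudocount was 0.1 and the threshold 1 RPKM. Members, role lists and wider lists were chosen with earlier results of these data known. Of the 40 members, 38 are named and the others enter counts and sums, their own values not being reported here. Of each wider or marker list the 3 highest genes are named, and of wider lists also the lowest; Fas, Fasl and, in marker lists, Elane, Cd3e, Krt14, Krt5, Pecam1 and Cx3cr1 were named after their values were seen. Start regions were from RefSeq (GRCm38.p6). Python 3.11.15, numpy 2.4.6, pandas 2.3.3, scipy 1.17.1 and matplotlib 3.10.9 were used.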

Additional observations from a re-analysis of the deposited data

How the results depend on the processing

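No paired analysis was possible because the single column is a mean with no replicate numbers, and leaving out replicates could not be done for the same reason. The count of members at or above 1 RPKM, 15 of 40, was 26 per kilobase of exon or of the longest transcript, 27 at a threshold of 0.1 RPKM and 4 at 5 RPKM. For pro-apoptotic genes, 8 of 19, it was 16 with both exon lengths, 17 at 0.1 RPKM, 2 at 5 RPKM and 5 of 14 with the core role list. For anti-apoptotic genes, 7 of 12, it was 2 at 5 RPKM and 4 of 5 with the core list. Of protein-coding genes, 31.6% were at or above 1 RPKM, 54.1% at or above 1 per kilobase of exon and 44.1% below 0.1 RPKM. Their share at 5 RPKM or by longest transcript was not computed. Without the Bcl2a1 copies 0 members were listed at 0, against 1. The pro-apoptotic minus anti-apoptotic median, -0.57 on the log2 scale, reversed to 0.63 without Xiap and the Birc genes, to 0.63 for the Bcl2 family alone, to 0.14 with means (0.61 per kilobase of exon) and to 0.069 per kilobase of exon over the 25 genes of similar span in GENCODE and RefSeq. It kept its sign at -0.32 with a pseudocount of 1, -0.65 per kilobase of exon, -1.16 with no length, -0.65 with members above 0, -0.69 without the Bcl2a1 copies, -0.50 without Birc5, -0.47 for the Bcl2 family per kilobase of exon, -0.27 with wide and -0.97 with core role lists, -0.061 by longest transcript and -0.88 without members that overlap another gene. With no length, the ratio of Bax over Bcl2l1 turned to 0.723, Xiap over Birc2 to 1.33, Diablo over Xiap to 0.535 and Apaf1 over Casp9 to 1.51, and per kilobase of exon Diablo over Xiap turned to 0.821, though not by longest transcript (1.41). The alternative with exon lengths of RefSeq was not run, as those lengths were not given. The longest transcript, similar span and overlap alternatives, and the Bcl2 family and means per kilobase of exon, were chosen after seeing the data. Depth limits Casp12, Casp14, Bcl2a1b, Bcl2a1c, Bcl2l10 and Bcl2l14, each with fewer than 10 estimated reads.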

Other observations

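Chromosome 9 held 8 of the 40 members, and 7 of these were below 0.1 RPKM, the exception being Birc2 at 2.77 RPKM. That chromosome has 1133 of the 20214 protein-coding genes with a value (5.61%). Of these 1133, 492 (43.4%) were below 0.1 RPKM, beside 44.1% of all protein-coding genes, and 13 of the 40 members were below it. Casp1, Casp4 and Casp12 follow each other there with 0 protein-coding genes with a value between neighbours, at 0.0170, 0.00420 and 0.00152 RPKM. Birc2 and Birc3 are likewise next to each other, at 2.77 and 0.0263 RPKM. Bcl2a1b and Bcl2a1c also lie on chromosome 9 but apart from these, with 264 protein-coding genes with a value between them. This grouping was noticed after the values were seen and was not tested.

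In GENCODE M21, 11 members overlap another gene with a value. Besides Bad, Bak1, Bcl2l2 and Diablo, Bcl2l12 at 0.368 RPKM lies opposite Gm15545, at 0.619 RPKM, over 45.1% of its span. Bcl2l12 also shares 1065 bases with Irf3, at 4.74 RPKM, and Bid and Bcl2l13 share 913 bases at their ends on opposite strands. No source used here says how such reads were assigned.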
